A study of Homo sapiens with 6 samples.

Results

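The replication-dependent histone genes are the clustered genes that supply the bulk of chromatin with histones H1, H2A, H2B, H3 and H4. They were taken as the rows of the authors' deposited table whose older gene names begin with HIST1H, HIST2H, HIST3H or HIST4H, which gave 73 of 26364 genes. RNA came from REH cells, an established line grown from a human acute lymphoblastic leukaemia of B-cell precursors. In 3 libraries the cells had received S3I-201, an inhibitor aimed at STAT3, at 50 µM for 6 h, and in the 3 DMSO libraries they had received its solvent for 6 h. The labels place the libraries of each group in independent experiments, so the spread between them includes separate cultures of 1 cell line.

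These genes are transcribed in S phase, when new chromatin is assembled behind the replication fork. Their mRNAs are unusual in lacking a poly(A) tail. They end shortly after a conserved stem-loop that the stem-loop binding protein SLBP holds through processing, export, translation and decay. Some members also give longer, polyadenylated transcripts, known above all in cells that have left the cycle. The kit named in the labels, TruSeq RNA v2, captures RNA by its poly(A) tail, so tail-less histone mRNA is expected to be poorly sampled by such libraries. The levels given here therefore describe the counted histone RNA, not the total histone mRNA of the cells.

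The stem-loop is shown for 6 members whose GENCODE 29 models hold it, chosen because they span the most abundant members and a histone H4 gene. Each line runs 5′ to 3′ as RNA-sense DNA letters, with the stem-loop in capitals and 5 flanking bases on each side in lower case.
HIST1H2BH: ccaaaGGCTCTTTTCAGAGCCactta
HIST2H2BE: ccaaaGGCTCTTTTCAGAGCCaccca
HIST1H2BD: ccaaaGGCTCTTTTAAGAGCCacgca
HIST1H2AC: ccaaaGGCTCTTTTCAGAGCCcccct
HIST1H2AG: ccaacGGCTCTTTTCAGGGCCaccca
HIST1H4E: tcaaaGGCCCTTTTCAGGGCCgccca
In hg38 these lie at chr6:26252050-26252075 on the plus strand for HIST1H2BH, chr1:149886183-149886208 on the minus strand for HIST2H2BE and chr6:26158582-26158607 on the plus strand for HIST1H2BD. The others lie at chr6:26124664-26124689 on the plus strand for HIST1H2AC, chr6:27133510-27133535 on the plus strand for HIST1H2AG and chr6:26204996-26205021 on the plus strand for HIST1H4E. HIST1H2BH, HIST2H2BE and HIST1H2AC carried the same 16 capital letters. The annotated models of HIST1H2BH and HIST2H2BE ran on for 1640 and 1729 bases past the stem-loop, and both ended with a polyadenylation signal (AATAAA or ATTAAA within the last 40 bases). The model of HIST1H2BD that holds the stem-loop ran only 39 bases past it, and also ended with such a signal, while its longest model, of 789 bases, did not hold the stem-loop. The GENCODE models of HIST1H2BK and HIST1H1C, of 381 and 642 bases, held no stem-loop and are not shown. Their RefSeq genes span 8566 (introns included) and 731 bases, so these models may stop before the stem-loop. That these genes lack a stem-loop cannot be read from the models.

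The counted level of these genes was low. The table gives each gene 1 mean normalized count, which is the mean over all 6 libraries of reads divided by a size factor for depth. Of the 73 members, 22 had a mean of 0, 46 a mean above 0 and under 10, and 5 a mean of at least 10. Together the 73 rows summed to 226.9 mean normalized counts, or 0.00198% of the sum over all genes. The 5 members of at least 10 held 61.3% of that sum. They ranked low among the 11912 genes with an adjusted p, whose median was 410 mean normalized counts, and HIST1H2BK, the most abundant member, lay above only 12.4% of them.

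Histone H2B genes supplied most of the counted reads. Their 20 rows held 64.2% of the members' summed mean, against 16.6% for the 18 rows of H2A, 7.98% for the 14 of H3, 6.90% for the 6 of H1 and 4.33% for the 15 of H4. The H2B share rested on HIST1H2BK at 43.2, HIST1H2BH at 38.1, HIST2H2BE at 32.1 and HIST1H2BD at 13.5 mean normalized counts in the authors' deposited table. H2A and H2B pair as dimers in the nucleosome core, yet no H2A gene reached 10, and HIST1H2AC was highest at 8.26. Among the linker histones H1, which bind DNA between nucleosomes, HIST1H1C stood at 12.3, and HIST1H1B, HIST1H1E and HIST1H1D at 1.40, 1.12 and 0.876 mean normalized counts. The highest H3 gene was HIST1H3C at 3.85 and the highest H4 gene HIST1H4E at 2.61 mean normalized counts. Only means of at least 10 carry an adjusted p, with HIST1H1C as the member nearest above that limit and HIST1H2AC nearest below it.

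**Figure D1:**
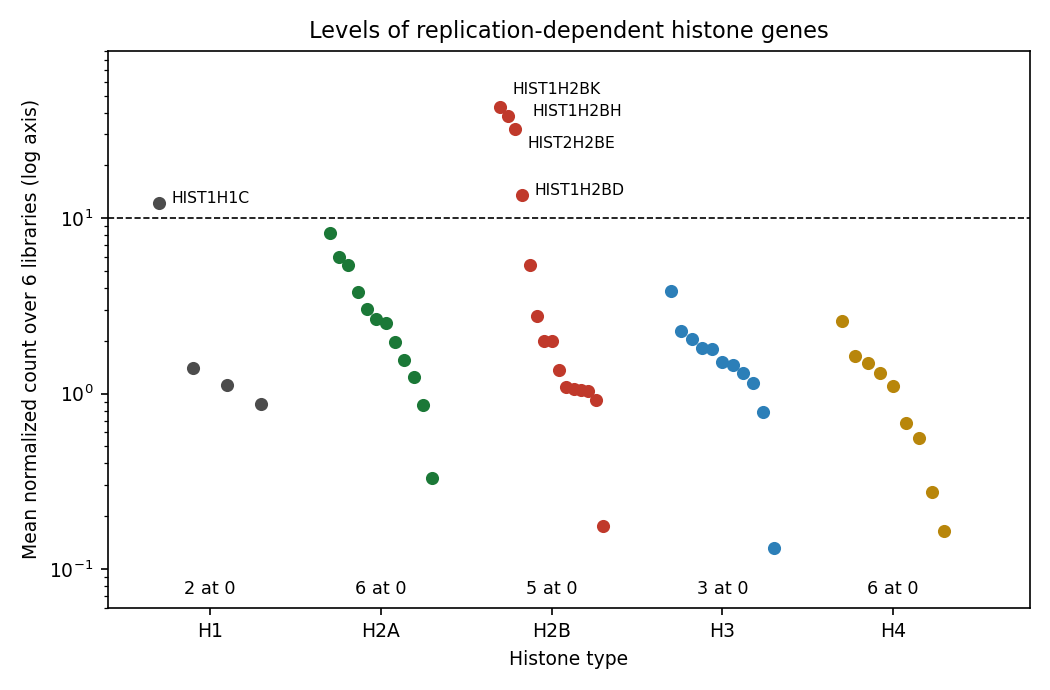
Mean normalized count of each histone gene with a mean above 0 (points, log axis), grouped by histone type along the horizontal axis, with the number of genes at 0 printed below. The dashed line marks 10, which 4 H2B genes and HIST1H1C exceeded.

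By chromosomal cluster, the 56 rows of HIST1 on chromosome 6 held 81.4% of the summed mean and the 13 rows of HIST2 on chromosome 1 held 18.5%. All 3 HIST3 genes were listed at 0, and HIST4H4 on chromosome 12 had a mean of 0.275. HIST1H2BK lies at 27146418 to 27146798 on the minus strand and HIST1H2BH at 26251651 to 26253710 on the plus strand of chromosome 6 (hg38, GENCODE 29 gene bounds). HIST1H2BD spans 26158146 to 26171349 on the plus strand and HIST1H1C 26055787 to 26056428 on the minus strand of chromosome 6. HIST2H2BE spans 149884459 to 149886652 on the minus strand of chromosome 1. Per kilobase of merged GENCODE exons HIST1H2BK had 113 mean normalized counts, HIST1H1C 19.1, HIST1H2BH 18.5, HIST1H2BD 15.5 and HIST2H2BE 14.6. These lengths need not be those the authors counted over, since the GENCODE model of HIST1H2BK holds 381 bases and its RefSeq gene spans 8566, introns included.

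A mean of 0 says that no read was counted in any library, and several of the 22 members at 0 have copies that reads cannot be told from. Of 17 members with over 50% of their 50-base windows also present in another gene's GENCODE transcript, 9 were at 0, against 13 of the 56 other members. The 17 are not all copies, since transcripts that overlap at 1 place also share windows. HIST1H2AK, for example, lies within the bounds of HIST1H2BN and shared 100% of its windows, most with that gene. HIST2H3A and HIST2H3C shared 100% of these windows, most of them with each other. HIST2H2AA3 shared 100% and HIST2H2AA4 97.1%, and HIST2H4A and HIST2H4B shared 97.5% and 97.2%. The authors' deposited table had all of these genes at 0. HIST1H2BK shared 74.1%, most with H2BFS, and its RefSeq gene overlaps the H4 gene H4C9, so its level may hold or lack reads of its neighbours and is uncertain. HIST1H2BD likewise overlaps the antisense gene H2BC6-AS1, whose reads a library without strand cannot tell apart, while HIST1H2BH shared 0%. The replication-independent H3F3A was at 0 as well, although H3F3B, which encodes the same histone H3.3, had 5708 mean normalized counts. HIST1H1T, HIST1H2BA and HIST3H3, known as testis histones, were also at 0, and none of the 50-base windows of these genes was shared. A count of 0 over all 6 libraries allows a mean normalized count of up to 0.481 (3 reads in all), counting error only.

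Many H3 and H4 members encode the same protein, while those of H1 do not. From the longest reading frame over all models of a gene, the 15 H4 genes gave 3 distinct frames, 13 of the genes sharing 1. HIST4H4 and HIST1H4G fell outside that group. The 14 H3 genes gave 3 frames, with 10 sharing 1. H2A gave 11 frames from 17 genes, H2B 14 from 18 and H1 6 from 6. The members HIST1H2APS1, HIST2H2BA and HIST2H2BC, annotated as pseudogenes, were left out of these counts. HIST1H2APS1 and HIST2H2BA had a mean of 0. The longest frame of a long model, such as the 1918 bases of HIST4H4, need not be the histone's own, so distinct proteins may be overcounted.

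Promoters of the H2A and H2B members shared a sequence that few other promoters hold. RefSeq promoters (250 bases before to 50 after the gene start, GRCh38.p14) were matched for 65 of the 73 members. The octamer ATTTGCAT, on either strand, was in 14 of 18 H2B and 11 of 16 H2A promoters, in 1 of 12 H3, and in 0 of 6 H1 and 0 of 13 H4 promoters, against 1.77% of all 35116 promoters. Many H2A and H2B genes stand head to head, 12 pairs with 124 to 331 bases between their GENCODE starts, so that some of these windows overlap and are not separate observations. The CCAAT motif, on either strand, was in all matched H1, H2A, H2B and H3 promoters and in 3 of 13 H4 promoters, against 34.6% of all. TATAAA, on either strand, was in 66.2% of the members' promoters, against 11.5% of all. The promoters of the 3 most abundant members follow, 5′ to 3′, with the octamer in capitals.
HIST1H2BH: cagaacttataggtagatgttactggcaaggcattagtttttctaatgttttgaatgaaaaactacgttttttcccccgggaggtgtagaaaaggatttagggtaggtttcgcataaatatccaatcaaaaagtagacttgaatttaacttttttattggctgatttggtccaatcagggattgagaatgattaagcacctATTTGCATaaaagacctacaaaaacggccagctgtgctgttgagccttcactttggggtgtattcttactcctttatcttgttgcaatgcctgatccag
HIST1H2BK: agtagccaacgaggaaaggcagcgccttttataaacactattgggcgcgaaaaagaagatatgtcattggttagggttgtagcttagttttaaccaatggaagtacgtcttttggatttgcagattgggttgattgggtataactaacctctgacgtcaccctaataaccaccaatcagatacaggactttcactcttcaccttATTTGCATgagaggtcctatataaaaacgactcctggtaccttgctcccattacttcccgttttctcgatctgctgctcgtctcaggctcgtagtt
HIST2H2BE: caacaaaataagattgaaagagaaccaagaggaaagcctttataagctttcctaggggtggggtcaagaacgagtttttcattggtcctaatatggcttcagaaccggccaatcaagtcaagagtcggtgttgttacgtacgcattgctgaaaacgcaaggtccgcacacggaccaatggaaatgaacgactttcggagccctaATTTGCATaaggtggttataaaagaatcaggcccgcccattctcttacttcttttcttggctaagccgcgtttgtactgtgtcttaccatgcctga
They lie at chr6:26251364-26251663 on the plus strand for HIST1H2BH, chr6:27146809-27147108 on the minus strand for HIST1H2BK and chr1:149886633-149886932 on the minus strand for HIST2H2BE. Relative to the RefSeq start the octamer began at position -49 in HIST1H2BH, and at -46 in both HIST1H2BK and HIST2H2BE. HIST1H2BD and HIST1H1C, the other members of at least 10, had no such match in their windows. Levels within head-to-head pairs could lie far apart. HIST1H2BK had 43.2 mean normalized counts and its partner HIST1H2AH 1.24, and HIST2H2BE had 32.1 and HIST2H2AC 6.02. HIST1H2BC at 5.41 and HIST1H2AC at 8.26 were closer, and 2 of the 12 pairs had both genes at 0. The H2B gene was the higher one in 4 pairs and the H2A gene in 6. Among the former, HIST1H2BF and HIST2H2BC, the latter annotated as a pseudogene, were paired with HIST1H2AD and HIST2H2AA4, both at 0. Both of these H2A genes shared over 50% of their 50-base windows, so their reads may be lost. Among the pairs with H2A higher, HIST1H2BG and HIST1H2AE had 17 and 19 reads over all libraries. HIST1H2BM and HIST1H2AJ had 7 and 10, while HIST1H2BJ and HIST1H2AG had 7 and 35. The tally was not tested.

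No histone gene passed the test between S3I-201 and DMSO. Of the 5 members with an adjusted p, 0 were called at 0.05 by the authors' DESeq2, against 5.90% of all 11912 genes (4.45% higher and 1.45% lower). An unadjusted p under 0.05 belonged to 1 of the 5, HIST1H2BH, which was on the lower side, against 16.0% of all genes in either direction and 6.88% on the lower side. A positive log2 fold change was taken to mean a higher level with S3I-201, since DESeq2 by default uses the group first in the alphabet, DMSO, as its baseline. No direction is given in the table, and its name puts DMSO before S3I-201, which could be read the other way. With the opposite direction every sign here would turn. The fold changes are also pulled towards 0 by the authors' fit, since a gene with a single read carries a value of only 0.03 to 0.04 in size, so they understate changes of weakly counted genes. An implied SE was obtained from each fold change and its p, as the error that gives that p under a normal distribution. It shrinks with the fold changes in weakly counted genes, at 0.058 for HIST2H3D, with 1 read, against 0.26 for HIST2H2BE. Thus it is not the error of an unshrunken change. The adjusted p with the abundance trend removed, given below, rests on it.

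In the authors' deposited table HIST1H2BH had the lowest log2 fold change of the 5, at -0.71 (implied SE 0.25, unadjusted p = 0.00488, adjusted p = 0.0739). It was called under only some settings, namely at an adjusted p of 0.1, where 7.54% of all genes are called (2.27% lower), and with the median fold change of equally abundant genes removed (log2 fold change -0.76, adjusted p = 0.0420), where 5.99% are (1.18% lower). The authors' deposited table gave HIST2H2BE 0.40 (implied SE 0.26, adjusted p = 0.504) and HIST1H2BK 0.22 (implied SE 0.25, adjusted p = 0.758). It gave HIST1H1C -0.15 (implied SE 0.26, adjusted p = 0.868) and HIST1H2BD -0.10 (implied SE 0.27, adjusted p = 0.921). None of these 4 passed either of those settings. The median of the 5 was -0.10, against -0.02 over all tested genes and 0.06 over the 1643 tested genes with a mean of 10 to under 50, of which 3.77% were called.

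**Figure D2:**
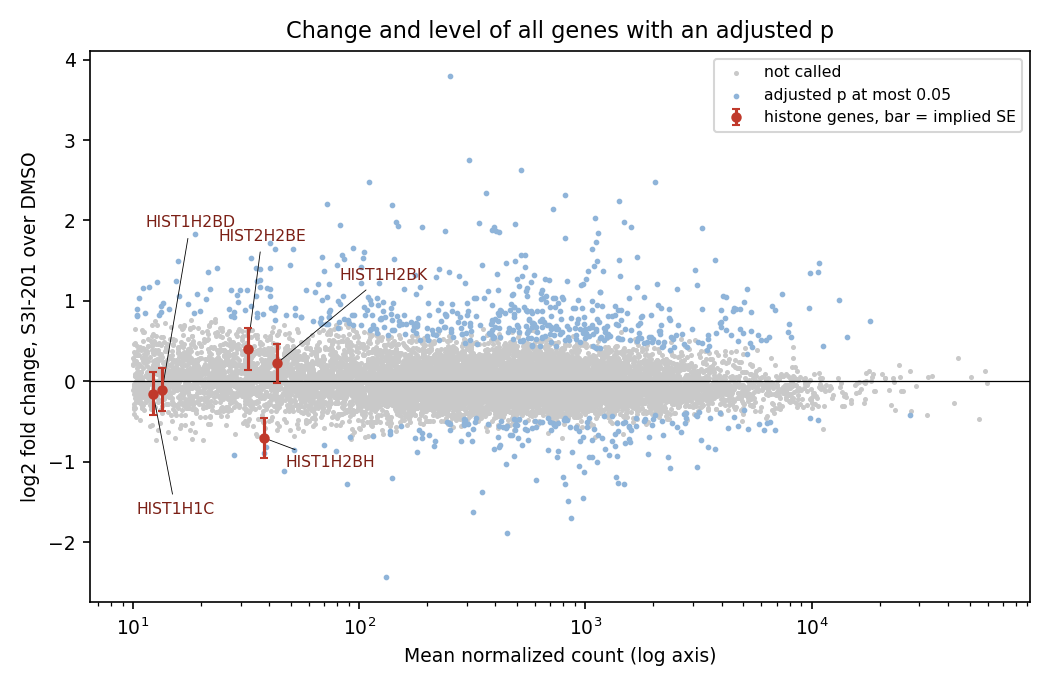
Log2 fold change (S3I-201 over DMSO) against mean normalized count (log axis) for the 11912 genes with an adjusted p, called genes in blue and others in grey. The 5 histone genes (red, bars of 1 implied SE) lie between -0.71 and 0.40 at the low end of abundance, and none is called.

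Among the 46 members with a mean above 0 and under 10, the authors' p was under 0.05 in 0, the smallest being 0.217, against 1.24% of the 5062 genes of that abundance with a p. Their log2 fold changes ran from -0.30 for HIST2H2AC to 0.18 for HIST1H2AC. Negative values belonged to 28 of the 46 (60.9%), against 40.8% of all genes under 10 with a p, and the medians were -0.03 and 0.03. These values are compressed by shrinkage, so neither a direction nor an absence of change can be read from single members.

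For genes this rare the reads of each library could be recovered from the mean itself. A mean over 6 libraries is a sum of whole reads, each worth a fixed step, and 5058 of 5063 genes with a mean under 10, all 46 members among them, had exactly 1 combination of whole reads that met the deposited mean within 9e-10. Where the sides differed by over 1 normalized count, the sign matched the deposited fold change in 1820 of 1820 genes. Libraries on the positive side, read as S3I-201, had size factors of 1.27, 1.19 and 0.573, and those on the negative side, read as DMSO, had 1.24, 1.02 and 0.948. On this basis the depth per library was between about 6560000 and 14500000 counts. They carry no replicate number, so the libraries are named by size factor and no test was run on them.

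HIST1H2AC had 6, 20 and 5 reads in the S3I-201 libraries of size factor 1.27, 1.19 and 0.573, against 14, 6 and 2 reads in the DMSO libraries of 1.24, 1.02 and 0.948. HIST2H2AC, in the same order of libraries, had 4, 6 and 2 reads with S3I-201, against 15, 5 and 7 with DMSO. HIST1H2BC had 3, 2 and 4 reads with S3I-201, against 14, 6 and 4 with DMSO. In these 3 genes 1 library stood out on one side or the other, and the groups overlapped once depth was taken into account. HIST1H2AG had 4, 4 and 3 reads with S3I-201, against 18, 3 and 3 with DMSO, so that 1 DMSO library held 18 of its 35 reads. HIST1H3C had 3, 6 and 2 reads with S3I-201, against 4, 7 and 2 with DMSO, nearly the same in both groups. The DMSO library of size factor 1.24 was the highest of the 6 in normalized reads of HIST2H2AC, HIST1H2BC and HIST1H2AG, at 12.1, 11.3 and 14.6, while HIST1H2AC peaked in the S3I-201 library of 1.19 at 16.8 normalized reads. For HIST1H1C, just above 10, 3 combinations met the mean and 1 of them the sign of the fold change, with 20, 9 and 5 reads with S3I-201, against 19, 17 and 9 with DMSO.

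**Figure D3:**
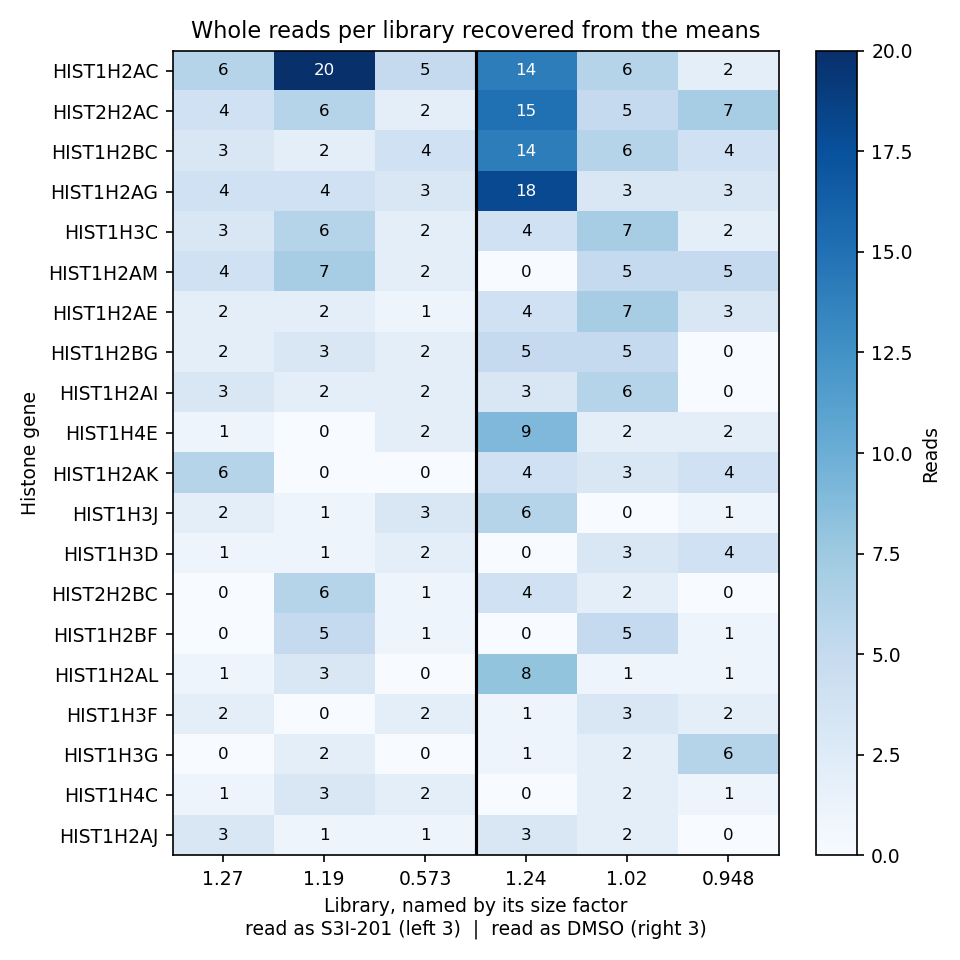
Whole reads per library (columns, named by size factor, S3I-201 left of the line and DMSO right of it) for the 20 most abundant histone genes with a mean under 10 (rows). Single libraries stand out, such as 20 reads of HIST1H2AC in an S3I-201 library and 18 of HIST1H2AG in a DMSO library, and most cells hold a few reads or none.

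Over the 46 members together the libraries of both groups overlapped. The summed normalized reads were 52.8, 80.5 and 94.2 in the S3I-201 libraries of size factor 1.27, 1.19 and 0.573, against 122, 106 and 70.6 in the DMSO libraries of 1.24, 1.02 and 0.948. The highest pair of libraries was DMSO and the lowest S3I-201, with 1 DMSO library below 2 of the S3I-201 libraries. The counting error alone was wide, with an exact Poisson 95% interval of 70.8 to 123 for the S3I-201 library of 0.573, which rested on 54 reads, and of 104 to 143 for the DMSO library of 1.24, which rested on 151. Over the other 5012 genes with recovered reads the sums were 11059, 11491 and 10610 normalized reads with S3I-201, against 9832, 7964 and 9741 with DMSO, so the DMSO library of 1.02 had the lowest sum of other rare genes and the second highest of histone genes. Per 1000 normalized reads of those genes, the members had 4.78, 7.01 and 8.88 with S3I-201, against 12.4, 13.3 and 7.25 with DMSO, and the groups overlapped on this scale too. In single members the groups overlapped in 44 of 46. HIST1H2AE had 2, 2 and 1 reads with S3I-201, against 4, 7 and 3 with DMSO, and HIST2H2BF 0, 1 and 0, against 2, 2 and 1. Both had every DMSO library above every S3I-201 library in normalized reads. In HIST2H2BF this rested on depth, with 1 read worth 1.05 in a DMSO library and 0.839 in an S3I-201 library. The share of members with every DMSO library above, 4.35%, compares with 2.19% of the 5058 genes. In 0 members was every S3I-201 library above, against 5.14% of the 5058 genes.

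**Figure D4:**
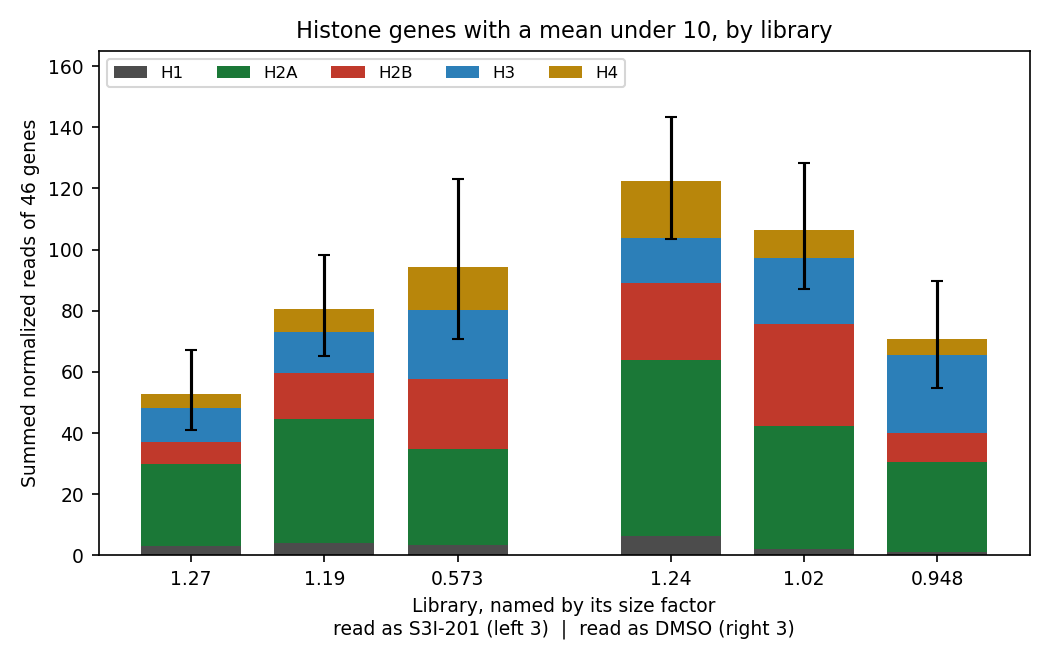
Summed normalized reads of the 46 histone genes with a mean under 10 in each library, coloured by histone type, with exact Poisson 95% intervals for counting error (bars). The S3I-201 libraries (left) lie at 52.8 to 94.2 and the DMSO libraries (right) at 70.6 to 122, so the groups overlap.

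By type, the H2A members under 10 summed to 26.8, 40.3 and 31.4 normalized reads in the S3I-201 libraries, against 57.5, 40.3 and 29.5 in the DMSO libraries. The H4 members summed to 4.73, 7.55 and 14.0 normalized reads with S3I-201, against 18.6, 8.85 and 5.27 with DMSO. The H3 members had 11.0, 13.4 and 22.7 with S3I-201, against 14.6, 21.6 and 25.3 with DMSO. Each of these types overlapped between the groups, and no type had all libraries of one group above the other. The H2B members under 10 ranged from 7.09 to 22.7 normalized reads with S3I-201, against 9.49 to 33.4 with DMSO, and the H1 members from 3.15 to 4.19, against 1.05 to 6.48.

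Some replication-independent histones, a class whose mRNAs are mostly polyadenylated, were counted at a far higher level, while others were not counted at all. Of their 19 rows 9 were at 0, H3F3C had 1.80 mean normalized counts, and 9 had at least 10. The 19 rows summed to 24893 mean normalized counts, 110 times the sum of the 73 replication-dependent members. Per kilobase of merged exons, the 5 replication-dependent members with an adjusted p had a median of 18.5 mean normalized counts, against 595 for the 8 replication-independent rows with one. Over all rows, those at 0 included, the median per kilobase was 1.32 for the replication-dependent and 1.70 for the replication-independent genes. Of the 8 tested, 0 were called by the authors' DESeq2, and 1 had an unadjusted p under 0.05, against 5.90% and 16.0% of all tested genes. Their median log2 fold change was -0.10, against -0.02 over all tested genes. The authors' deposited table gave that gene, H2AFX, whose product is phosphorylated at DNA breaks, -0.38 (adjusted p = 0.198). It gave the linker histone H1FX -0.26 (adjusted p = 0.364), H2AFV -0.18 (adjusted p = 0.583) and the macroH2A gene H2AFY -0.11 (adjusted p = 0.794). For CENPA, the centromeric H3 variant, the authors' deposited table lists -1.54 without a p, with 169 mean normalized counts.

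Genes listed for the making and handling of histone mRNA, not all of them specific to it, showed 0 calls by the authors' DESeq2. In the list for 3′ end processing and decay, 0 of 37 tested were called and 5 had an unadjusted p under 0.05, against 5.90% and 16.0% of all tested genes, with a median log2 fold change of -0.05. For SLBP itself the authors' deposited table lists 0.04 without a p, with 1754 mean normalized counts. There CSTF3, a cleavage stimulation subunit, had 0.36 (adjusted p = 0.0992), SNRPG -0.35 (adjusted p = 0.142), CSTF1 -0.31 (adjusted p = 0.174) and LSM6, of the decay-linked Lsm ring, -0.32 (adjusted p = 0.269), all from the authors' deposited table. Of 12 tested genes of histone gene transcription and its cyclin E-CDK2 trigger, 0 were called and 2 had an unadjusted p under 0.05. These are near the same shares of all tested genes, 5.90% and 16.0%, and the median was 0.15. NPAT and CASP8AP2 are counted both in this list and in that for 3′ end processing and decay. From the authors' deposited table, NPAT, the co-activator of histone genes that cyclin E-CDK2 phosphorylates, had 0.24 (adjusted p = 0.648), CCNE2 0.40 (adjusted p = 0.259) and E2F1 0.30 (adjusted p = 0.331). POU2F1, which binds the octamer shown above, stood in the authors' deposited table with -0.42 (adjusted p = 0.263).

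Of 33 tested histone chaperones and assembly factors, 1 was lower and 32 did not pass, with a median of -0.09, and 1.45% of all tested genes were lower. The authors' deposited table gave the lower gene, HJURP, the chaperone of CENPA, -0.94 (implied SE 0.20, adjusted p = 1.79e-04). From the authors' deposited table, IPO4, a histone importin, had -0.45 (adjusted p = 0.0530), ASF1A, a chaperone of H3 and H4, 0.46 (adjusted p = 0.0935) and ANP32A -0.35 (adjusted p = 0.105). Of 35 tested genes of DNA synthesis in S phase, 2 were higher and 33 did not pass, with a median of 0.07. That count is near the 4.45% of all tested genes that were higher. In the authors' deposited table the higher genes were the helicase subunit MCM5 with 0.51 (adjusted p = 0.0206) and the licensing factor CDT1 with 0.53 (adjusted p = 0.0362). MCM7, with -0.44 (adjusted p = 0.0940), and the sliding clamp PCNA, with 0.41 (adjusted p = 0.109), missed the threshold there. CDC6, of the same list, is given as 0.76 without a p, with 2229 mean normalized counts, and so is not among the tested genes. MCM2 is counted both in this list and among the chaperones. Of 21 tested genes of G2 and mitosis, 15 were lower, against 1.45% of all tested genes, 6 did not pass and the median was -0.82. The smallest adjusted p belonged to KIF20A, CCNB1, UBE2C and CDC20, which the authors' deposited table gives as -1.70, -1.48, -1.28 and -1.27. Whether the histone values moved with the cell cycle state of the cultures was not tested. For STAT3, the compound's intended target, the authors' deposited table has 0.46 (implied SE 0.18, adjusted p = 0.108). Fewer cells in a phase and less RNA per cell cannot be told apart in bulk RNA.

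**Figure D5:**
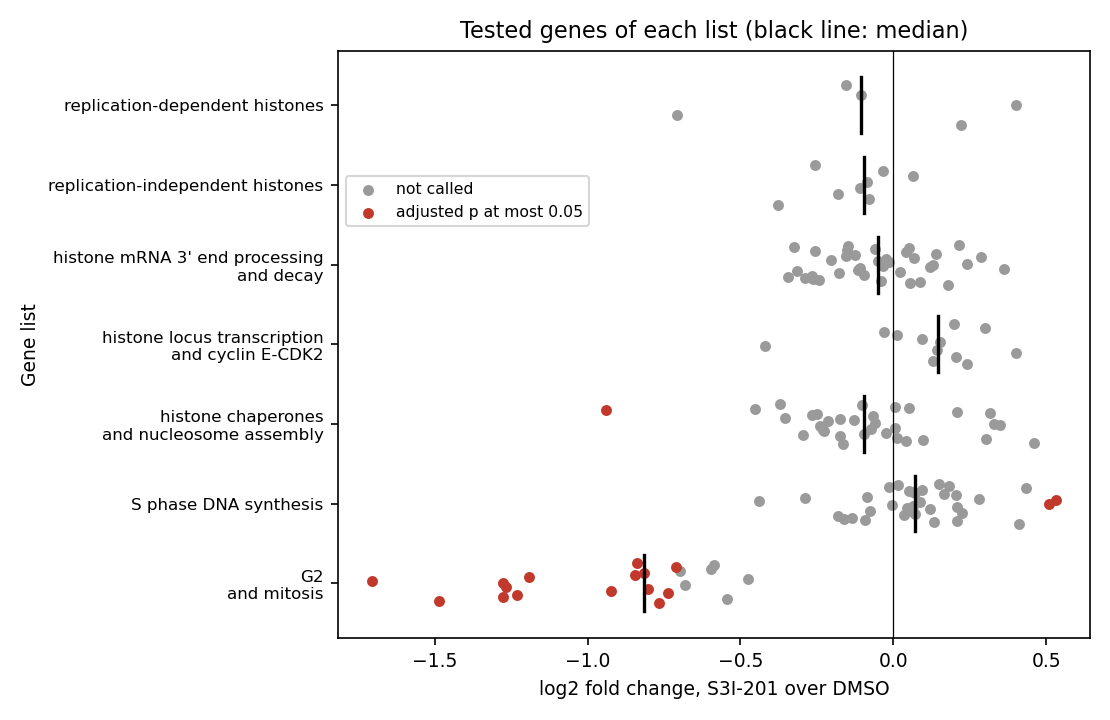
Log2 fold change (S3I-201 over DMSO) of each tested gene in the replication-dependent histones and 6 related lists, called genes in red, with the list median as a black line. The medians run from -0.82 for G2 and mitosis to 0.15 for histone locus transcription, and the 5 replication-dependent histones have a median of -0.10 and 0 calls. NPAT, CASP8AP2 and MCM2 are plotted in each list that holds them.

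The line was checked by its markers. Of 13 B-precursor markers 12 had means of at least 10, among them DNTT with 13622 and PAX5 with 8093 mean normalized counts, and VPREB1 was listed at 0. Of the markers of other cells, CD3D, CD3E, CD3G, CD2, COL1A2 and all 4 erythroid genes were at 0. MPO had 978, PDGFRB 654, CSF1R 127 and COL1A1 40.6 mean normalized counts, and the remaining ones were under 10.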

How the data were processed

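RNA-seq of REH cells was analysed from the authors' deposited table, which pools 6 libraries, 3 with S3I-201 and 3 with DMSO. Per the submitters' processing notes, the genome build was hg38, and DESeq2, featureCounts, Bowtie2, Picard, Trimmomatic and bcl2fastq were used, with no roles stated. Annotation, strand setting and model formula are not given in the sources used here. Reads of overlapping genes and near-identical copies may therefore be lost or split. The deposited mean normalized count is a signal of reads over size factors, per the file headers. The deposited log2 fold change and the p-value and adjusted p-value are the authors' own, per the file headers. The planned count test needs counts per library and was replaced by the deposited adjusted p, called at 0.05.

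Computed here, with Python 3.11.15, pandas 2.3.3 and scipy 1.17.1, were the implied SE, sums and medians, p-values re-adjusted by Benjamini-Hochberg, fold changes with the median of 20 abundance bins removed, and whole reads per library for means under 10. The code for read recovery and trend removal was run on simulated data. These simulations reused the fitted steps and the implied SE, so they cannot show that either is right. Gene models came from GENCODE 29 and promoters from RefSeq. All members with a mean of at least 10 are named, with the 5 highest below and up to 4 genes per related list. The members, lists and rules were chosen with earlier results of these data known; a few further genes were named after their values were seen.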

Additional observations from a re-analysis of the deposited data

How the results depend on the processing

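The count of called histone genes was 0 as deposited. Its value of 0 at a threshold of 0.01 and with a minimum log2 change of 1 was fixed by that. When adjusted over every gene with a p-value, the count was also 0. It was 1, HIST1H2BH, at a threshold of 0.1 and 1, also HIST1H2BH, with the abundance trend removed (adjusted p = 0.0420), while adjustment over every gene with a p-value gave that gene an adjusted p of 0.104. The other 4 members of at least 10 kept their direction and stayed above 0.05 under both. The median log2 fold change of -0.10 became -0.15 with members of at least 5 and -0.17 with the trend removed. Leaving out members that encode the same protein as another could not move it from -0.10. No member of at least 10 had such a partner. No member reached 50, so minimum means of 50 and 100 gave no value, and no member of at least 10 has a pseudogene name. With members of at least 10 alone, H2B held 91.2% of the summed level, H1 8.82%, and H2A 0%, H3 0% and H4 0%. Per kilobase of merged exons H2B held 57.0%, H2A 20.4% and H3 10.3%. That H2B share leaned on HIST1H2BK, at 113 mean normalized counts per kilobase against 18.5 for HIST1H2BH, the next H2B gene. The 113 rests on a GENCODE model of 381 bases, which need not be the length the authors counted over. No paired analysis was possible because the table has no column of single libraries and the recovered reads carry no replicate number. Leaving out a replicate and other count tests were not run: no reads per library were recovered for the members of at least 10 except HIST1H1C, and for those under 10 each library's reads are given without a test. Few reads limit every member: those under 10 had 1 to 53 reads over all libraries, 543 in all.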
